A study of Homo sapiens with 6 samples.

Results

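The nuclear genes for the subunits of oxidative phosphorylation were described in Cal27, an established human cell line of tongue squamous carcinoma. They were chosen by symbol: protein-coding genes starting NDUFA (not NDUFAF), NDUFB, NDUFC, NDUFS, NDUFV, UQCR, COX4, COX5, COX6, COX7, COX8 or ATP5, and SDHA, SDHB, SDHC, SDHD and CYC1. The rule used no measured value, but it was set with earlier results of these data known. There were 91 such genes among the 57820 rows of the count table, and 84 of them were among the 16396 genes with enough counts to be tested. Complex I held 38 (37 tested), complex II 4 (4 tested), complex III 10 (10 tested), complex IV 19 (14 tested) and complex V 20 (19 tested), with NDUFA4 and NDUFA4L2 placed in complex IV. The untested genes were COX4I2, COX6A2, COX6B2, COX7B2 and COX8C, which are tissue-restricted isoforms, and the readthrough loci NDUFC2-KCTD14 and ATP5MF-PTCD1. Of the 84 tested genes, 80 code for the common subunits, counting among them ATP5IF1, the inhibitor of the ATP synthase. The rest are NDUFA4L2, COX7A1, and the copies UQCRHL and ATP5MGL.

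Oxidative phosphorylation passes electrons from NADH (complex I) and succinate (complex II) through ubiquinone, complex III and cytochrome c to oxygen at complex IV. Complexes I, III and IV pump protons out of the mitochondrial matrix, and complex V, the ATP synthase, uses their return to make ATP. Most subunits are coded in the nucleus and imported, while the mitochondrial genome codes for a small set of core membrane subunits, so that each complex except complex II needs both genomes.

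The study compared 3 groups of 2 libraries each. In the CRNN group, lentivirus delivered a construct for overexpression of cornulin (CRNN), an S100 fused-type protein of squamous epithelium. In the GFP group, lentivirus carried a GFP control vector. Both were transduced with 8 µg/ml polybrene and harvested after 48 h. The third group was untreated Cal27 cells, for which neither polybrene nor a harvest time is given, so that these cannot be told apart from transduction in a comparison with it. All samples come from this line, and the labels do not say whether the replicates are separate cultures, so p-values measure the spread between these samples alone. Library totals were between 11817105 and 28041227 counts, lowest in GFP replicate 2. Values are given as CPM, read counts scaled to the library's size, with TMM factors.

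CRNN itself had 962 and 1027 CPM in the CRNN libraries, 3.06 and 2.55 CPM in the GFP libraries and 3.51 and 2.08 CPM in the untreated libraries, as labelled (log2 fold change 8.46 over GFP, SE 0.43, adjusted p = 2.24e-04, edgeR). The 7 squamous epithelial markers were all tested and summed to between 3719.9 and 5782 CPM, most of it from the keratin KRT5 (between 1899.7 and 4264 CPM). Untreated replicate 1 stood apart on several markers, though not all in the same direction. The keratin KRT14 was lowest there, at 64.5 CPM, with between 123 and 274 CPM in the others. KRT5, KRT6A, TP63 and EPCAM lay there within the range of the others. KRT17, a keratin of stressed and basal epithelium, had 1769 CPM there and between 67.5 and 182 CPM in the others, and CDH1, the adhesion protein E-cadherin, had 281 CPM there and between 73.2 and 116 CPM in the others. The members' medians against untreated cells are also given without this library. Of the 6 fibroblast markers, 5 were tested and summed to between 3.84 and 8.13 CPM. Of the 5 immune markers, 2 were tested (PTPRC and LYZ) and summed to between 0.687 and 1.67 CPM, and CD68 was at 0 in 4 of the 6 libraries. Of 3 endothelial markers, KDR was at 0 in 4 libraries, while CDH5 had 49.9 CPM in untreated replicate 1 and between 7.20 and 12.6 CPM in the others. Since these are bulk samples, fewer cells with a transcript and less transcript per cell cannot be told apart. Mitochondrially encoded genes took between 22.5% and 29.3% of the counts.

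Many subunit genes have promoters with sites for the nuclear respiratory factors NRF1 and GABP, an ETS-family factor, and for YY1 and Sp1. In the RefSeq promoter table (GRCh38.p14, 250 bases before to 50 after a gene's start), 71 of the 91 genes had an entry. The letters GCGCATGC (NRF1), CCGGAAG (ETS), AAGATGGC (YY1) and GGGCGG (Sp1) were searched on both strands. NRF1 letters were in 12 of 71 subunit promoters (16.9%), against 3.21% of all 27305 promoters and 5.16% of the 10223 promoters of tested protein-coding genes. For ETS the shares were 28.2%, 10.6% and 18.6%, and for YY1 16.9%, 2.999% and 5.18%. Sp1 letters were in 62.0% of the subunit promoters, against 43.8% of all and 69.0% of those of tested protein-coding genes. At least 1 of these motifs was in 54 of the 71. A match is a description of the letters and not a site shown to be bound, and no match says only that these letters are not in the window.

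The promoters below are those of the member with the smallest p for CRNN against GFP in each complex, followed by that of COX6A2, the heart and skeletal muscle isoform of COX6A1, which had almost no reads. Capitals mark the motifs on either strand, and overlapping matches join into 1 run.
NDUFB6, chr9:32573110-32573409, minus strand: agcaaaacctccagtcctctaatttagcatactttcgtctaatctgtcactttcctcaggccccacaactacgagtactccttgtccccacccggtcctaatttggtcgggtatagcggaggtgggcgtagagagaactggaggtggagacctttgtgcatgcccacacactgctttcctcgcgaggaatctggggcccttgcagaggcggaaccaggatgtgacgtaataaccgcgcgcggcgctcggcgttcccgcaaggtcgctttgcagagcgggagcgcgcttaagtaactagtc
SDHD, chr11:112086623-112086922, plus strand: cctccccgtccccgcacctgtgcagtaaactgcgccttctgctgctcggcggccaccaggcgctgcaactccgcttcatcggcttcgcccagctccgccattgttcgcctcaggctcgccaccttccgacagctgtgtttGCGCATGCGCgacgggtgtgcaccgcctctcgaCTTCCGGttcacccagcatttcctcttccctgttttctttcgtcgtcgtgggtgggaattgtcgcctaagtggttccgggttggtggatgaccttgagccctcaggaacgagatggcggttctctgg
UQCR10, chr22:29767119-29767418, plus strand: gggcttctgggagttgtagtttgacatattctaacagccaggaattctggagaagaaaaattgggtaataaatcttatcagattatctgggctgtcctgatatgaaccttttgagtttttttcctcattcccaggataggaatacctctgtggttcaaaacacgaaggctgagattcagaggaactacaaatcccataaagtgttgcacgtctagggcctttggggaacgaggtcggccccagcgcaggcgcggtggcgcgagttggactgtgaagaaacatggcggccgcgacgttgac
COX6A1, chr12:120437863-120438162, plus strand: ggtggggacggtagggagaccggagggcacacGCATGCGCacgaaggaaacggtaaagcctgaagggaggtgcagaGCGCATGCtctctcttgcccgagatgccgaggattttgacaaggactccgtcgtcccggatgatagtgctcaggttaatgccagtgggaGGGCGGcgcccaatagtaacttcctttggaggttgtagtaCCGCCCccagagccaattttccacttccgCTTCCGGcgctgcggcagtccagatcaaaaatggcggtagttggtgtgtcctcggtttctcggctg
ATP5PD, chr17:75046920-75047219, minus strand: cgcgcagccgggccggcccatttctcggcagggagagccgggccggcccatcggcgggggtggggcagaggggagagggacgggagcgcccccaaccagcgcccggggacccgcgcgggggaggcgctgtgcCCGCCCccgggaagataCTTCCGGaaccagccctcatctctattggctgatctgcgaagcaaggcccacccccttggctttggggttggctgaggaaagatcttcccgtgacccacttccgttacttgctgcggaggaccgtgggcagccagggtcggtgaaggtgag
COX6A2, chr16:31428311-31428610, minus strand: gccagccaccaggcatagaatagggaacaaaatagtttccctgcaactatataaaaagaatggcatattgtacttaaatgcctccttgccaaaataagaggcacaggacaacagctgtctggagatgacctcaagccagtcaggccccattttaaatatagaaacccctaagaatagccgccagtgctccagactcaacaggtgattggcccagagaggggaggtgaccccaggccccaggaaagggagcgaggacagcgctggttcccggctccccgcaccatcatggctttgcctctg
The SDHD promoter held NRF1 letters on both strands in 1 run that starts at position -110, and an ETS motif. COX6A1 had 2 NRF1 motifs, 1 ETS motif and 2 Sp1 motifs, and ATP5PD had 1 ETS and 1 Sp1 motif. NDUFB6, UQCR10 and COX6A2 had none. Across 66 tested members with a promoter, the 12 with NRF1 letters had a median log2 fold change of 0.39 for CRNN over GFP and the other 54 had 0.33. The 20 with ETS letters had 0.35 and the other 46 had 0.33. These differences were not tested.

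The comparison of CRNN with GFP asks which transcripts differ when the virus carries cornulin in place of the control insert. Most subunit genes had slightly more reads in the CRNN libraries, but no gene of the group passed the test. The size of the difference depended on which genes defined the GC content and length trends that were removed. Of the 84 tested, the log2 fold change was above 0 in 77, and over the 84 it had a median of 0.32 and a range of -0.75 to 0.72. Over all 16396 tested genes 49.9% were positive and the median was -0.00. In 43 members both CRNN libraries lay above both GFP libraries (51.2%, against 19.4% of all tested genes), and in 0 did both lie below (18.7% of all). Subunit transcripts are mostly short, and of the other tested protein-coding genes shorter than 1000 bases 35.5% had both CRNN libraries above, beside 49.0% of the members of that length. With each library's trend with GC content and length fitted on all tested genes with values and removed, as planned, the members' median was 0.29, with 79 positive. Fitted on protein-coding genes, a choice made after seeing the data, the trend left a median of 0.11, with 58 positive. Fitted on those expressed, also chosen after seeing the data, it left 0.056, with 49 positive. Libraries enter every gene together, so the members are not independent of each other.

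By edgeR's quasi-likelihood test, with p adjusted over all tested genes by Benjamini-Hochberg and called under 0.05, 0 of 84 members passed, where 3 of 16396 genes did (0.0183%). The adjusted p of every member was 0.999. At an unadjusted p under 0.05 there were 4 members, all higher in CRNN (4.76%), against 4.39% of all tested genes in either direction, 1.49% higher and 2.9% lower, where no member was. DESeq2 and limma-voom also called 0 members and had 4 members each at an unadjusted p under 0.05 (583 and 728 of 16396 genes). With the planned GC and length correction, 10 members reached that p (827 of 15932 genes did, edgeR). With the corrections fitted on protein-coding and on expressed protein-coding genes, 1 and 0 members did (838 and 861 genes). Without a correction, the change was smaller than its standard error in 33 of the 84 members. The median depended on single libraries: without CRNN replicate 2 it was 0.17, and without CRNN replicate 1 it was 0.47. The members at an unadjusted p under 0.05 numbered 0 without either CRNN library, 15 without GFP replicate 1 and 5 without GFP replicate 2 (edgeR).

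**Figure D1:**
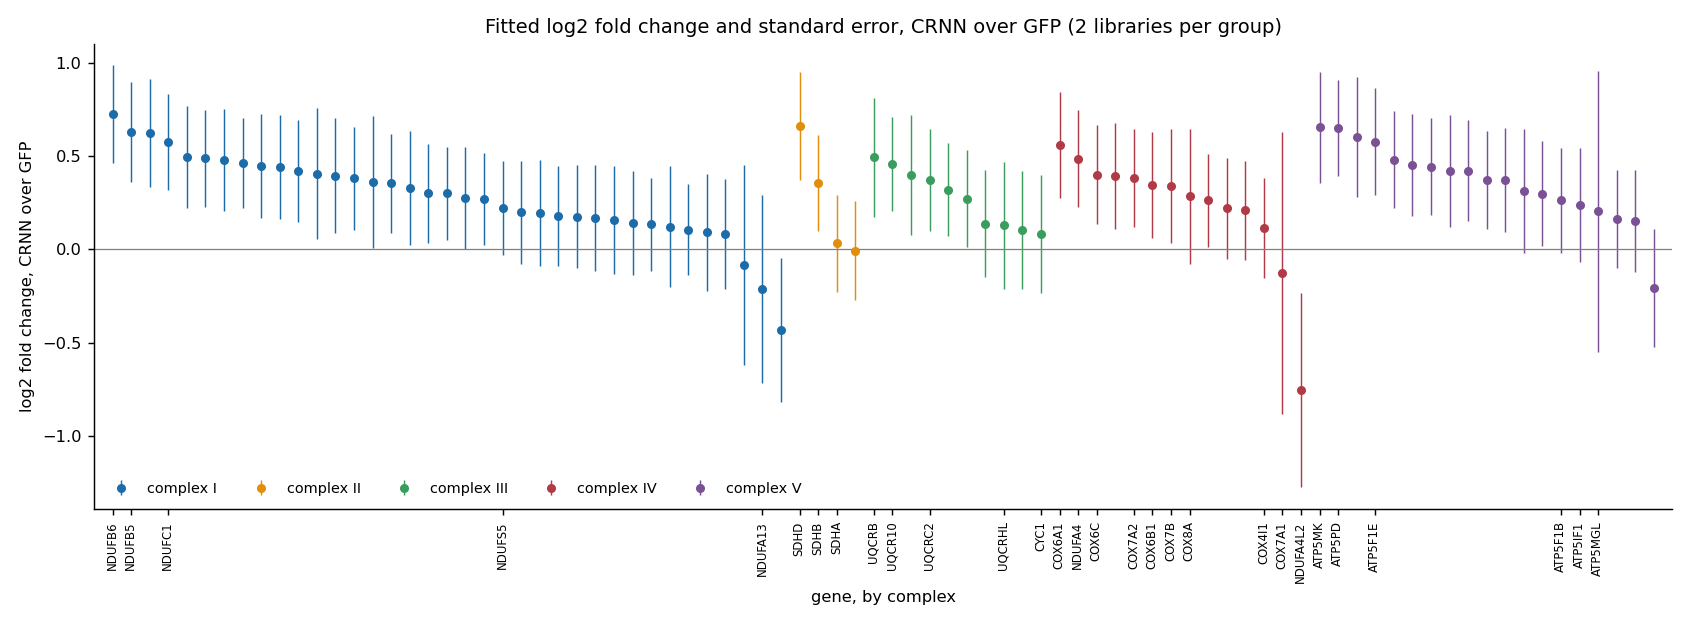
Fitted log2 fold change of CRNN over GFP for the 84 tested subunit genes, ordered within each complex and coloured by complex, with the standard error as a bar (2 libraries per group), and with names for the genes picked by the naming rule. Points lie above 0 for 77 genes, and in 33 the standard error exceeds the distance to 0.

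Complex I takes electrons from NADH. Its 37 tested genes had a median log2 fold change of 0.30 for CRNN over GFP, with 34 positive. The 30 accessory subunits, which surround the enzyme and are needed for its assembly and stability, had a median of 0.36, and 21 of them had both CRNN libraries above both GFP libraries (19.4% of all tested genes did). The 7 core subunits, which include the carriers of the flavin and the iron-sulfur clusters, had a median of 0.11, with 1 of 7 so placed. After the GC and length correction fitted on protein-coding genes, described further on, the median of the 37 was 0.12. It was 0.13 for the accessory and 0.099 for the core subunits, with 11 of 30 and 3 of 7 so placed (18.7% of all genes with values). The difference between them was not tested. Core transcripts were also richer in GC, with a median of 53.7% against 48.6% in the accessory group.

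NDUFB6, an accessory subunit of the membrane arm (ENSG00000165264.6; GRCh38 chromosome 9, from 32553001 through 32573184), had 31.3 and 40.02 CPM in the CRNN libraries, 22.8 and 20.3 CPM in the GFP libraries and 29.9 and 30.02 CPM in the untreated libraries. Both CRNN libraries lay above the other 4. Its log2 fold change for CRNN over GFP was 0.72 (SE 0.26, unadjusted p = 0.0221, adjusted p = 0.999, edgeR). NDUFB5, another membrane-arm subunit (ENSG00000136521.8; GRCh38 chromosome 3, from 179604690 through 179627647), had 71.2 and 95.7 CPM in the CRNN libraries, 50.4 and 57.7 CPM in the GFP libraries and 73.3 and 79.99 CPM in the untreated libraries, and its log2 fold change was 0.63 (SE 0.27, unadjusted p = 0.0447, adjusted p = 0.999, edgeR). NDUFC1, a small accessory subunit, had 19.5 and 22.4 CPM in the CRNN libraries, 14.3 and 13.9 CPM in the GFP libraries and 20.02 and 18.4 CPM in the untreated libraries, with a log2 fold change of 0.57 (SE 0.26, unadjusted p = 0.0523, adjusted p = 0.999, edgeR). In all 3 genes the GFP libraries were the lowest, and for NDUFB5 and NDUFC1 the CRNN and untreated ranges overlapped. These 3 were picked for the smallest p in CRNN against GFP, so this order partly follows from the pick.

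NDUFS5, an accessory subunit on the intermembrane-space side, had the highest level per length of exon in complex I, with 83.6 and 99.5 CPM in the CRNN libraries, 82.8 and 74.2 CPM in the GFP libraries and 87.1 and 94.5 CPM in the untreated libraries. These come to a mean of 159 CPM per kilobase of exon, and the log2 fold change for CRNN over GFP was 0.22 (SE 0.25, edgeR). NDUFA13, also known as GRIM-19, had the lowest level per length, with 1.403 and 1.202 CPM in the CRNN libraries, 2.07 and 0.877 CPM in the GFP libraries and 0.763 and 0.879 CPM in the untreated libraries from between 11 and 40 counts a library, or 0.443 CPM per kilobase. NDUFA7 had between 0.381 and 0.778 CPM, and NDUFV2, a core subunit with an iron-sulfur cluster, between 2.85 and 5.96 CPM (chosen after their values were seen). The next lowest on average was NDUFB8, with between 5.82 and 11.4 CPM, a range that meets that of NDUFV2. The annotated exons of NDUFA13, NDUFA7 and NDUFV2 overlap another gene on the same strand over 21.0%, 32.5% and 28.4% of their length, and those of NDUFB8 over 33.8%. How the authors' counting treated reads shared by overlapping genes is not given in the sources used here, so these 4 levels are uncertain.

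Complex II, succinate dehydrogenase, is also an enzyme of the tricarboxylic acid cycle and is coded in the nucleus alone. Its 4 genes differed among themselves, with a median log2 fold change of 0.19. With the GC and length correction fitted on protein-coding genes the median was 0.02. With that fitted on expressed protein-coding genes, given further on, it was -0.02. SDHA, the flavoprotein, had 134 and 148 CPM in the CRNN libraries, 131 and 145 CPM in the GFP libraries and 129 and 156 CPM in the untreated libraries, and the groups overlapped, with a log2 fold change of 0.03 (SE 0.26, edgeR). SDHB, the iron-sulfur subunit, had 105 and 131 CPM in the CRNN libraries, 90.4 and 94.6 CPM in the GFP libraries and 117 and 119.8 CPM in the untreated libraries, with a log2 fold change of 0.35 (SE 0.26, unadjusted p = 0.2, adjusted p = 0.999, edgeR). SDHD, a membrane anchor that helps to bind ubiquinone (ENSG00000204370.4; GRCh38 chromosome 11, from 112086824 through 112120016), had 25.1 and 32.8 CPM in the CRNN libraries, 15.2 and 21.5 CPM in the GFP libraries and 26.2 and 27.5 CPM in the untreated libraries. Both CRNN libraries exceeded both GFP libraries, and GFP replicate 1 was the lowest of the 6. Its log2 fold change was 0.66 (SE 0.29, unadjusted p = 0.0488, adjusted p = 0.999, edgeR). The other anchor, SDHC, had a log2 fold change of -0.01 (SE 0.26, edgeR). The difference between the anchors was not tested.

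Complex III hands electrons from ubiquinol to cytochrome c. For CRNN over GFP the log2 fold changes of its 10 genes ran between 0.08 and 0.49, and their median was 0.30. After the correction fitted on protein-coding genes the median was 0.11. UQCR10, a small subunit (ENSG00000184076.10; GRCh38 chromosome 22, from 29767369 through 29770413), had 91.2 and 88.2 CPM in the CRNN libraries, 70.5 and 60.2 CPM in the GFP libraries and 69.6 and 76.4 CPM in the untreated libraries. Here both CRNN libraries lay above the other 4, and the log2 fold change was 0.46 (SE 0.25, unadjusted p = 0.101, adjusted p = 0.999, edgeR). UQCRB, which sits by a ubiquinone site, had 51.2 and 87.7 CPM in the CRNN libraries, 43.5 and 55.3 CPM in the GFP libraries and 67.3 and 58.1 CPM in the untreated libraries. CRNN replicate 2 stood far above CRNN replicate 1, and the groups overlapped. Its log2 fold change was 0.49 (SE 0.32, unadjusted p = 0.157, adjusted p = 0.999, edgeR). UQCRC2, a core protein of the matrix side, had 158 and 176 CPM in the CRNN libraries, 108 and 149.7 CPM in the GFP libraries and 178 and 182 CPM in the untreated libraries. Its CRNN libraries lay above both GFP libraries and below both untreated libraries. The log2 fold change over GFP was 0.37 (SE 0.27, unadjusted p = 0.208, adjusted p = 0.999, edgeR). CYC1, the cytochrome c1 that passes electrons on, had the highest level per length (97.6 CPM per kilobase of exon), with 199 and 196 CPM in the CRNN libraries, 239 and 134 CPM in the GFP libraries and 189 and 194 CPM in the untreated libraries. Its GFP libraries spanned both of the other groups, and the log2 fold change was 0.08 (SE 0.32, edgeR). The lowest was UQCRHL, a copy of UQCRH without introns, with between 3.51 and 5.00 CPM. Reads of UQCRH and UQCRHL can be shared, so the level of the copy is uncertain.

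Complex IV, cytochrome c oxidase, reduces oxygen to water. In 12 of 14 tested genes the log2 fold change was positive, and the median was 0.31. It was 0.04 with the correction fitted on protein-coding genes and -0.04 with that fitted on expressed protein-coding genes. In 5 genes both CRNN libraries lay above both GFP libraries (19.4% of all tested genes). After the correction fitted on protein-coding genes, 1 lay above and 1 below (18.7% and 23.9% of all genes with values). COX6A1 (ENSG00000111775.2; GRCh38 chromosome 12, from 120438090 through 120440737) is the common isoform of a regulatory subunit and had 39.02 and 55.1 CPM in the CRNN libraries, 35.9 and 27.9 CPM in the GFP libraries and 38.9 and 41.9 CPM in the untreated libraries. The log2 fold change was 0.56 (SE 0.28, unadjusted p = 0.0816, adjusted p = 0.999, edgeR). NDUFA4, first assigned to complex I and now counted in complex IV, had 118 and 146 CPM in the CRNN libraries, 98.4 and 90.3 CPM in the GFP libraries and 111 and 127 CPM in the untreated libraries, with a log2 fold change of 0.49 (SE 0.26, unadjusted p = 0.0957, adjusted p = 0.999, edgeR). COX6C had 54.9 and 73.7 CPM in the CRNN libraries, 45.9 and 51.6 CPM in the GFP libraries and 69.6 and 69.04 CPM in the untreated libraries and a log2 fold change of 0.40 (SE 0.26, unadjusted p = 0.166, adjusted p = 0.999, edgeR). COX6C has 17 named pseudogenes that could share its reads. The highest level per length was that of COX8A, a small structural subunit (ENSG00000176340.3; GRCh38 chromosome 11, from 63974620 through 63976543), at 371 CPM per kilobase of exon. COX8A had 202 and 194 CPM in the CRNN libraries, 221 and 104 CPM in the GFP libraries and 174 and 205 CPM in the untreated libraries. Its GFP replicates lay 1.09 log2 units apart, the widest gap within a group among the 84 genes, and its log2 fold change was 0.29 (SE 0.36, edgeR).

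Complex V, the ATP synthase, had 18 of 19 log2 fold changes positive. Their median was 0.13 after the correction fitted on protein-coding genes and 0.37 as fitted. The medians were 0.37 for the 5 subunits of the F1 head and central stalk, where ATP is made, 0.42 for the 3 genes of the c ring, which turns as protons pass, 0.29 for the 4 of the peripheral stalk and 0.48 for the 5 small membrane subunits. After the correction fitted on protein-coding genes these were 0.11, 0.18, -0.0014 (2 of 4 positive) and 0.135 in the same order, and the differences between them were not tested. ATP5PD, subunit d of the peripheral stalk (ENSG00000167863.7; GRCh38 chromosome 17, from 75038863 through 75046985), had 64.96 and 71.7 CPM in the CRNN libraries, 47.5 and 39.6 CPM in the GFP libraries and 54.8 and 61.9 CPM in the untreated libraries. CRNN libraries were the 2 highest and GFP libraries the 2 lowest. The log2 fold change was 0.65 (SE 0.26, unadjusted p = 0.0318, adjusted p = 0.999, edgeR). ATP5MK, also called DAPIT, had 43.7 and 64.8 CPM in the CRNN libraries, 38.9 and 30.04 CPM in the GFP libraries and 55.6 and 47.6 CPM in the untreated libraries, with a log2 fold change of 0.65 (SE 0.30, unadjusted p = 0.0556, adjusted p = 0.999, edgeR). ATP5F1E, the epsilon subunit of the central stalk, had 156 and 231 CPM in the CRNN libraries, 123 and 137 CPM in the GFP libraries and 195 and 181 CPM in the untreated libraries, with a log2 fold change of 0.58 (SE 0.29, unadjusted p = 0.075, adjusted p = 0.999, edgeR). For the last 2 genes, picked by their p in CRNN against GFP, GFP was the lowest group, and CRNN and untreated cells overlapped.

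ATP5F1B, the catalytic beta subunit (ENSG00000110955.4; GRCh38 chromosome 12, from 56638175 through 56645984), was the most abundant member, with 855 and 956 CPM in the CRNN libraries, 859.8 and 650.3 CPM in the GFP libraries and 850.1 and 936 CPM in the untreated libraries from between 8160 and 23415 counts, or a mean of 380 CPM per kilobase of exon. GFP replicate 2 was the lowest library, and the log2 fold change was 0.26 (SE 0.28, edgeR). ATP5MGL, a copy of ATP5MG, was the lowest of the complex at 0.501 CPM per kilobase, on at most 14 counts a library. ATP5IF1, the inhibitor that blocks ATP hydrolysis when the membrane potential falls, had 59.5 and 72.3 CPM in the CRNN libraries, 45.9 and 65.99 CPM in the GFP libraries and 48.6 and 69.7 CPM in the untreated libraries. Within each of the 3 groups replicate 2 was the higher, the groups overlapped, and the log2 fold change was 0.24 (SE 0.31, edgeR). The negative member was ATP5F1D, the delta subunit of F1, at -0.20 (SE 0.32), which had the highest GC content of the 84 genes (69.5%).

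Against untreated cells the order was different. CRNN over untreated had a median log2 fold change of 0.07, with 61 of 84 positive, and without CRNN replicate 2 the median was -0.08, with 29 positive. Without untreated replicate 1 it was 0.03, with 45 positive. In 12 members both CRNN libraries lay above both untreated libraries (18.7% of all tested genes did) and in 4 below (18.4%). GFP over untreated had a median of -0.24, with 9 positive, and 43 members had both GFP libraries below both untreated libraries (15.5% of all tested genes), while 1, NDUFV2, had both above (16.2%). Without GFP replicate 1 this median was -0.38, with 7 positive, without GFP replicate 2 it was -0.16, with 25 positive, and without untreated replicate 1 it was -0.33, with 8 positive. After the planned GC and length correction it was -0.28, with 6 positive. After the GC and length correction fitted on protein-coding genes it was -0.090, with 20 positive and with 25 members below (15.9% of all genes with values) and 6 above (18.1%). With the correction fitted on expressed protein-coding genes it was -0.041, with 35 positive. No member passed in either comparison (edgeR, adjusted p under 0.05), where 1 gene (0.0061%) passed for CRNN and 0 for GFP. At an unadjusted p under 0.05 there were 0 members for CRNN over untreated (4.48% of all, with 1.52% higher and 2.96% lower) and 1, lower, for GFP over untreated (6.93% of all, with 4.03% higher and 2.9% lower). DESeq2 and limma-voom called 0 members in both. At an unadjusted p under 0.05 they had 0 and 0 members for CRNN (727 and 550 of 16396 genes). For GFP they had 1 and 1 (1101 and 1005 genes). The comparison of CRNN with GFP and that of GFP with untreated cells share the GFP libraries, so their values are not separate evidence.

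The member with the smallest p in GFP over untreated was NDUFS4 (chosen after its values were seen), an accessory subunit whose loss in people causes Leigh syndrome. NDUFS4 had 20.2 and 28.8 CPM in the CRNN libraries, 17.1 and 14.6 CPM in the GFP libraries and 28.7 and 23.6 CPM in the untreated libraries. GFP libraries were the 2 lowest, and the log2 fold change of GFP over untreated was -0.72 (SE 0.29, unadjusted p = 0.0344, adjusted p = 0.711, edgeR). For CRNN over GFP its value was 0.63 (SE 0.29, unadjusted p = 0.0593, adjusted p = 0.999, edgeR), and for CRNN over untreated it was -0.10.

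Libraries of 1 group also differed from each other. Taking each gene's log2(CPM + 0.5) minus its mean over the 6 libraries, the median over members was 0.01 and 0.23 in CRNN replicates 1 and 2, -0.07 and -0.28 in GFP replicates 1 and 2, and -0.00 and 0.14 in untreated replicates 1 and 2. CRNN replicate 2 was the highest library for 50 of 84 members, and GFP replicate 2 was the lowest for 50. GFP replicate 1 was the lowest for 24 and the highest for 15. Within groups, the median difference of replicate 1 minus replicate 2 was -0.20 in the CRNN group, 0.22 in the GFP group and -0.11 in the untreated group. Over all tested genes these medians were 0.01, 0.00 and -0.01. The part of CRNN replicate 2, of GFP replicate 2 and of library depth, which was lowest in GFP replicate 2, in the comparison of CRNN with GFP was not tested beyond leaving each out.

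**Figure D2:**
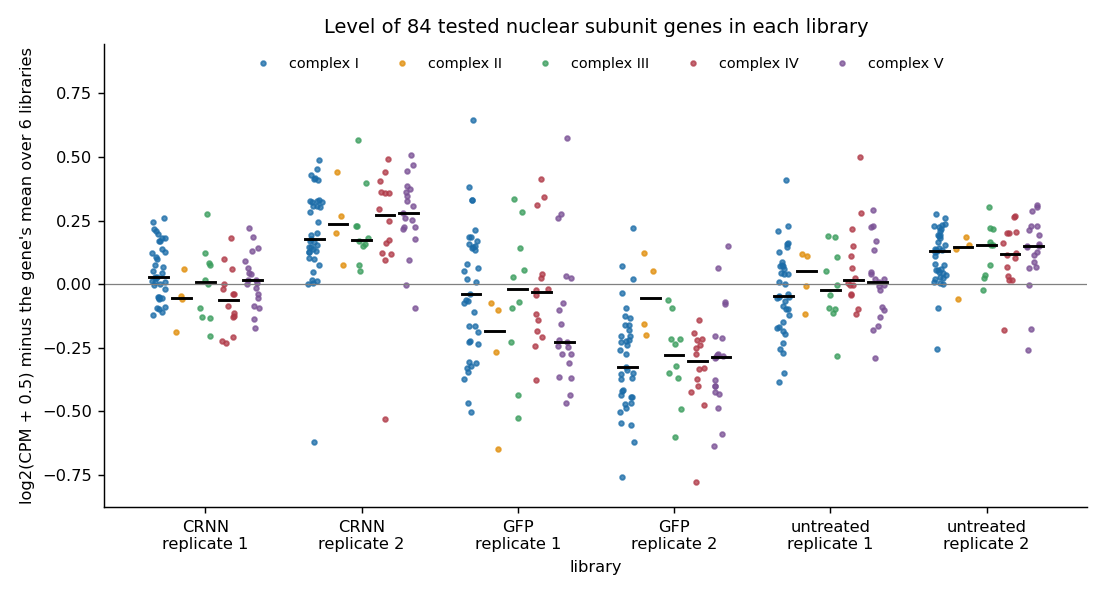
Level of the 84 tested subunit genes in each library, as log2(CPM + 0.5) minus the gene's mean over the 6 libraries, coloured by complex, with black bars at the median of each complex. CRNN replicate 2 lies highest (median 0.23 over all members) and GFP replicate 2 lowest (-0.28).

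Member transcripts had between 34.6% and 69.5% GC and canonical lengths between 276 and 11660 bases. Their median length was 760.5 bases (3336 for all tested protein-coding genes), and their median GC was 47.4% (48.7%). Within a library the members' deviations followed GC content, across genes that share the library: Spearman's rho (n = 84 genes) was 0.32 and -0.61 in CRNN replicates 1 and 2, 0.75 and -0.36 in GFP replicates 1 and 2, and -0.43 and -0.11 in untreated replicates 1 and 2. The log2 fold change of CRNN over GFP had rho = -0.55 with GC content (-0.14 over 15932 tested genes) and -0.02 with length. That of CRNN over untreated had rho = 0.08 with GC content, and that of GFP over untreated 0.55.

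In the 27 members with under 45% GC the median log2 fold change of CRNN over GFP was 0.42, in the 39 with 45 to 55% it was 0.30, and in the 18 above that it was 0.11. Other tested protein-coding genes shorter than 1000 bases had medians of 0.36 (n = 118), 0.25 (n = 220) and 0.10 (n = 315) in the same bands. Without regard to GC, the 51 members under 1000 bases had 0.30 and the 653 other short protein-coding genes 0.20. The 10 members over 3000 bases had 0.41, where the 7036 other protein-coding genes of that length had -0.04, and these 10 were not matched on GC content.

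When each library's trend with GC content and length was removed, the result depended on which genes defined the trend. Defined on all tested genes with values, as planned, the trend left a median of 0.29, with 79 of 84 positive. Defined on the 12579 tested protein-coding genes, a choice made after seeing the data, it left 0.11, with 58 positive, and 23 members with both CRNN libraries above both GFP libraries (27.4%, against 18.7% of all genes with values). Defined on the 10741 protein-coding genes whose log2 CPM averaged 1 or more, it left 0.06, with 49 positive. There complexes II and IV had medians of -0.02 and -0.04 and complexes I, III and V of 0.05, 0.10 and 0.07. Of the named genes with the smallest p, NDUFB6 had 0.40, SDHD 0.37, UQCR10 0.18, COX6A1 0.33 and ATP5PD 0.31 under the protein-coding trend. No member passed under any of these corrections.

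**Figure D3:**
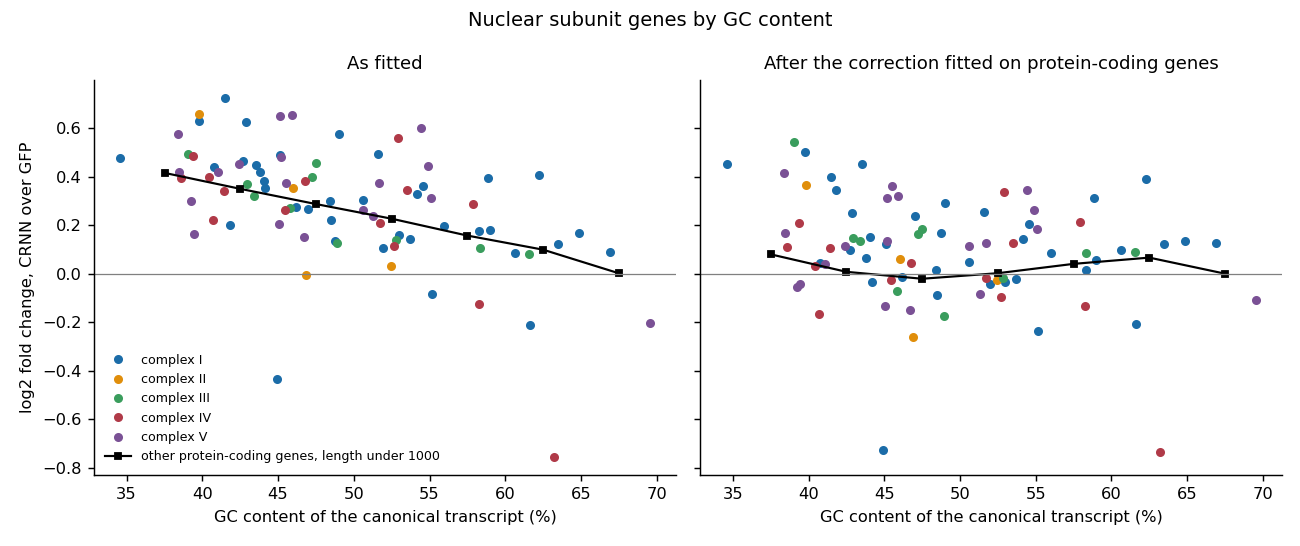
Log2 fold change of CRNN over GFP against the GC content of the canonical transcript for the 84 tested subunit genes, as fitted (left) and after the GC and length correction fitted on protein-coding genes (right). Black squares give the median of the other tested protein-coding genes shorter than 1000 bases in bands of GC content. On the left members and squares both slope downward (rho = -0.55 for members), and on the right the members' rho is -0.20.

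Several complex IV subunits have alternative isoforms made in particular tissues, and in Cal27 cells the common isoforms had nearly all of the reads. COX4I1 had 200.4 and 247 CPM in the CRNN libraries, 225 and 189 CPM in the GFP libraries and 223 and 237 CPM in the untreated libraries, while its lung isoform COX4I2 had 0 counts in all 6 libraries. COX6A1 is given above, and COX6A2 had 1 count, in GFP replicate 1. COX6B1 had 124 and 161 CPM in the CRNN libraries, 127 and 96.7 CPM in the GFP libraries and 115 and 137 CPM in the untreated libraries, against 3 to 7 counts a library for the testis isoform COX6B2. COX7B had 54.2 and 86.6 CPM in the CRNN libraries, 53.7 and 57.6 CPM in the GFP libraries and 59.5 and 76.7 CPM in the untreated libraries, and COX7B2 had 0 counts throughout. COX8C, the alternative to COX8A, had 2 counts in untreated replicate 2 and 0 elsewhere. A count of 0 allows up to 3 counts, counting error alone. Scaled to library totals without TMM factors, that is between 0.107 and 0.254 CPM depending on the library.

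COX7A2 had 95.01 and 126 CPM in the CRNN libraries, 88.5 and 80.8 CPM in the GFP libraries and 102 and 99.9 CPM in the untreated libraries, and its heart and skeletal muscle isoform COX7A1 had 0.317 and 0.445 CPM in the CRNN libraries, 0.622 and 0.159 CPM in the GFP libraries and 0.572 and 0.28 CPM in the untreated libraries, on at most 15 counts. The log2 fold change of CRNN over GFP was 0.38 (SE 0.26) for COX7A2 and -0.13 (SE 0.75) for COX7A1 (edgeR). NDUFA4L2, a paralog of NDUFA4 that is induced by hypoxia in other cells, had 0.905 and 0.623 CPM in the CRNN libraries, 1.66 and 0.877 CPM in the GFP libraries and 1.79 and 1.199 CPM in the untreated libraries, on 11 to 47 counts. Both CRNN libraries lay below both untreated libraries, and CRNN and GFP overlapped. The log2 fold change of CRNN was -0.75 (SE 0.52) over GFP and -0.97 (SE 0.50, unadjusted p = 0.0881, adjusted p = 0.989, edgeR) over untreated cells.

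**Figure D4:**
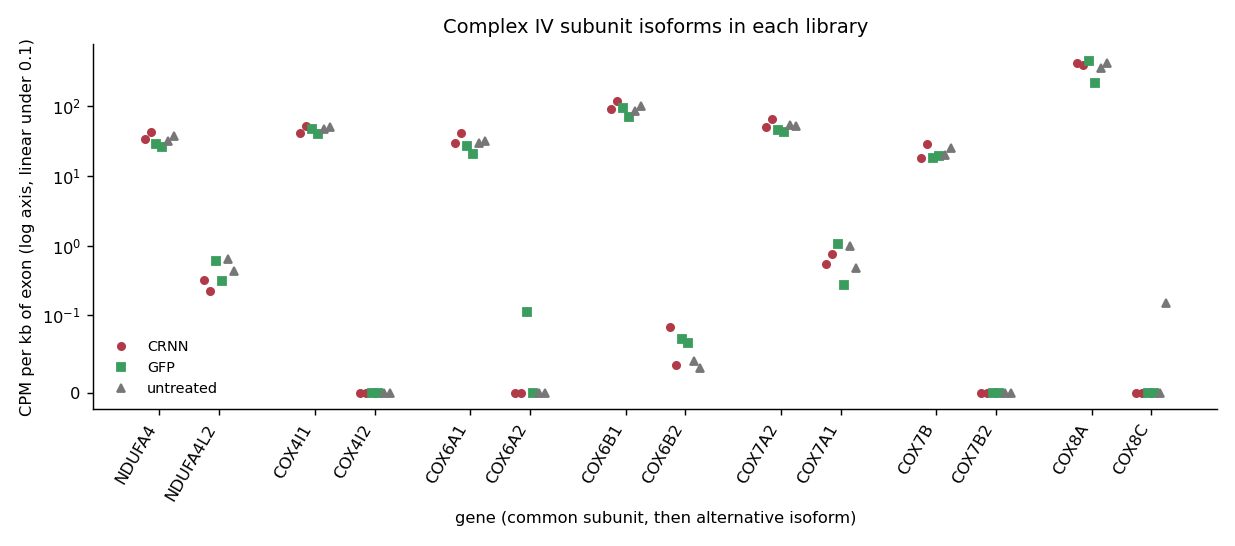
Level of complex IV common subunits and their alternative isoforms in each library, as CPM per kilobase of exon on an axis that is logarithmic above 0.1 and linear below. Common isoforms lie above 10 in every library, and COX4I2 and COX7B2 lie at 0 in all.

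Levels per length depended on the gene model. Over the union of annotated exons, the median was 11.6 CPM per kilobase for complex I, 15.5 for complex II, 34.2 for complex III, 39.5 for complex IV and 27.9 for complex V. Over the canonical transcript they were 38.2, 36.9, 65.3, 77.9 and 75.2. ATP5F1B and COX8A had ranks 1 and 2 under both, while COX4I1 was at rank 21 by exon union and at rank 3 by canonical transcript. Named pseudogenes exist for 50 of the 84 genes, most for COX6C (17), NDUFA5 (12) and NDUFB4 (12), and 15 overlap another gene on the same strand over at least 10% of their exons, which makes their levels less certain. The readthrough locus ATP5MF-PTCD1 had 0 to 6 counts a library and NDUFC2-KCTD14 had 0.

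The partner subunits coded by the mitochondrial genome had the opposite order between CRNN and GFP. The 13 mitochondrial mRNAs summed to 10446 and 6185 CPM in the CRNN libraries, 15075 and 11915 CPM in the GFP libraries and 10103 and 12328 CPM in the untreated libraries. The 84 tested nuclear genes summed to 6906 and 7957 CPM in the CRNN libraries, 6652 and 5555 CPM in the GFP libraries and 6836 and 7526 CPM in the untreated libraries. The 13 mitochondrial mRNAs took between 0.639% and 1.49% of a library's counts. Their counts were 1.51 and 0.777 times the nuclear subunit counts in the CRNN libraries, 2.27 and 2.14 times in the GFP libraries, and 1.48 and 1.64 times in the untreated libraries. This ratio was lowest in CRNN replicate 2, CRNN replicate 1 lay between the untreated libraries, and the GFP libraries had the 2 highest.

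All 13 mitochondrial mRNAs had a negative log2 fold change of CRNN over GFP (median -1.05). In 12 both CRNN libraries lay below both GFP libraries (18.7% of all tested genes). None passed by edgeR, and 9 had an unadjusted p under 0.05, all lower (4.39% of all tested genes in either direction, 2.9% lower). After the correction fitted on protein-coding genes the median was -1.35, with all 13 below (23.9% of all genes with values). MT-ND2, a membrane subunit of complex I, had 90.8 and 43.98 CPM in the CRNN libraries, 192 and 166 CPM in the GFP libraries and 89.6 and 134 CPM in the untreated libraries, with a log2 fold change of -1.41 (SE 0.38, unadjusted p = 0.00523, adjusted p = 0.999, edgeR). MT-ATP6, the proton channel subunit of complex V, had 256 and 146 CPM in the CRNN libraries, 457 and 442 CPM in the GFP libraries and 217 and 315 CPM in the untreated libraries, with a log2 fold change of -1.16 (SE 0.35, unadjusted p = 0.0087, adjusted p = 0.999, edgeR). Over untreated cells, the median of the 13 was -0.41 for CRNN and 0.70 for GFP. These transcripts lie in a library's RNA beside a mitochondrial share that itself varied between libraries, and its part in the nuclear values was not tested. With library sizes and scaling taken without mitochondrial genes the members' median for CRNN over GFP was 0.32.

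**Figure D5:**
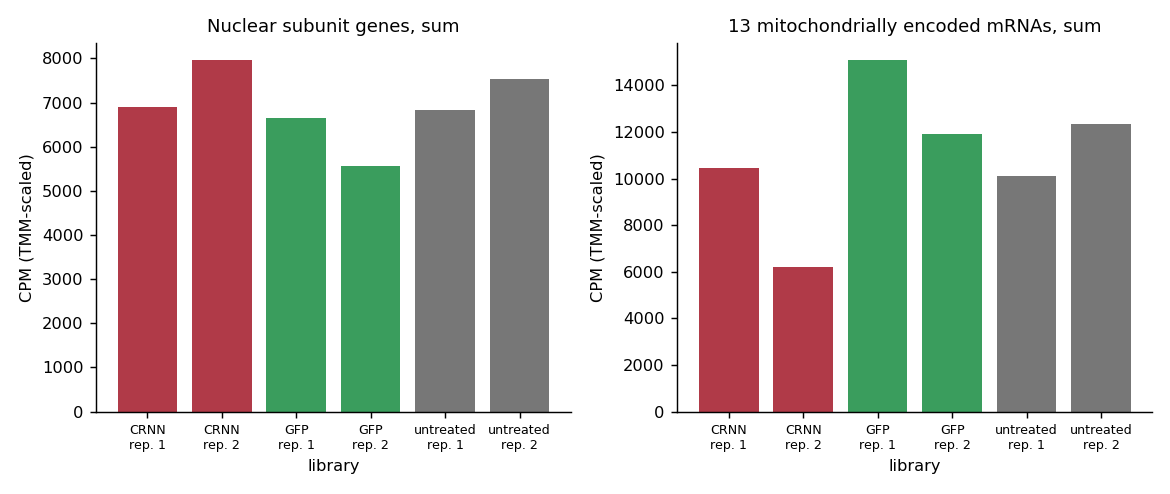
Summed CPM of the 84 tested nuclear subunit genes (left) and of the 13 mitochondrially encoded mRNAs (right) in each library, bars from 0. CRNN replicate 2 has the highest nuclear sum (7957) and the lowest mitochondrial sum (6185), and GFP replicate 1 has the highest mitochondrial sum (15075).

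Other genes of the pathway gave smaller medians, and none of them passed by edgeR in CRNN over GFP. The 49 assembly factors, which build the complexes, had a median log2 fold change of 0.20, with 43 positive and 1 at an unadjusted p under 0.05. That was COX16, a complex IV assembly factor, with 6.38 and 8.77 CPM in the CRNN libraries, 4.25 and 3.67 CPM in the GFP libraries and 7.25 and 5.796 CPM in the untreated libraries and a log2 fold change of 0.93 (SE 0.33, unadjusted p = 0.0201, adjusted p = 0.999, edgeR). The 75 tested proteins of the mitochondrial ribosome had a median of 0.25 (67 positive, 0 at an unadjusted p under 0.05). The 16 enzymes of the tricarboxylic acid cycle had 0.13 (12 positive, 0 at that p) and the 18 glycolysis enzymes 0.10 (14 positive, 1 at that p). That 1 was ALDOC, at 0.86 (SE 0.33, edgeR). After the correction fitted on protein-coding genes these medians were 0.07, 0.07, 0.02 and 0.08, beside 0.11 for the subunits. The 79 cytosolic ribosomal proteins, which are short transcripts too, had 0.23 as fitted and 0.00 after it.

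The 14 regulators of mitochondrial biogenesis had a median of 0.06, with 8 positive and 0 at an unadjusted p under 0.05. The smallest p was that of PPRC1, a coactivator related to PGC-1alpha, with 44.6 and 37.4 CPM in the CRNN libraries, 69.1 and 44.9 CPM in the GFP libraries and 108 and 46.1 CPM in the untreated libraries and a log2 fold change of -0.48 (SE 0.41, unadjusted p = 0.274, adjusted p = 0.999, edgeR). PPARGC1A, PGC-1alpha itself, had 6.699 and 8.68 CPM in the CRNN libraries, 1.504 and 8.37 CPM in the GFP libraries and 1.75 and 8.195 CPM in the untreated libraries. It was low in GFP replicate 1 and untreated replicate 1 alone, and its log2 fold change was 0.67 (SE 0.81, unadjusted p = 0.43, adjusted p = 0.999, edgeR). NRF1 had 15.2 and 14.4 CPM in the CRNN libraries, 21.7 and 15.8 CPM in the GFP libraries and 20.3 and 14.8 CPM in the untreated libraries, with a log2 fold change of -0.34 (SE 0.29, unadjusted p = 0.274, adjusted p = 0.999, edgeR). GABPA, the DNA-binding subunit of GABP, had 14.6 and 13.9 CPM in the CRNN libraries, 10.7 and 24.5 CPM in the GFP libraries and 17.8 and 21.1 CPM in the untreated libraries, with a log2 fold change of -0.30 (SE 0.38, unadjusted p = 0.452, adjusted p = 0.999, edgeR). CRNN and GFP overlapped for PPARGC1A and GABPA, while both CRNN libraries lay below both GFP libraries for NRF1 and PPRC1. Of the 14 regulators, 3 lay below in this way (18.7% of all tested genes) and 0 above (19.4%). NRF1 and GABPA were named for the motifs above, and PPARGC1A for its role, and not for their p.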

How the data were processed

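RNA of 6 Cal27 libraries (CRNN, GFP and untreated, 2 each) was sequenced as stranded, paired-end total RNA, per the labels' protocols. The deposited table holds whole-number read counts per gene with no normalization. Per the submitters' processing notes, STAR 2.6 and HTSeq 0.6.1 were used, beside bcl2fastq, FastQC 0.11.7 and edgeR, and more than 1 genome build is listed. Which build and annotation the counts used, and their strand setting, is not given in the sources used here. Gene IDs were matched without version to GENCODE 44 (GRCh38), which named 51996 of 57820 and gave coordinates, lengths and GC content (97.2% of tested genes).

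Counts were filtered with edgeR's filterByExpr (minimum count 10, minimum total 15), scaled by TMM and fitted over all 6 libraries with edgeR 4.0.16 (R 4.3.3, glmQLFit and glmQLFTest, two-sided). p-values were adjusted by Benjamini-Hochberg over 16396 genes, with a threshold of 0.05. The common biological coefficient of variation (square root of the dispersion) came to 0.289. Tested genes held 99.9% of the counts. A count of 0 allows up to 3 counts, for counting error only. The steps were tested on simulated counts. Alternatives were DESeq2 1.42.0, limma-voom 3.58.1, other scalings and filters, a replicate block, removal of each library's spline trend with GC content and length (4 degrees of freedom), and leaving out each library. The corrections fitted on protein-coding genes and the canonical length were added after seeing the data.

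The members and gene lists were chosen with earlier results of these data known. Values in every library are given for the 3 members of each complex with the smallest p in CRNN against GFP, those with the highest and lowest level per length, the alternative isoforms with their counterparts, and ATP5IF1. Of the other lists, up to 4 genes with the smallest p could be named. MT-ATP6, PPARGC1A, NRF1, GABPA and the cell type markers were named for their roles. No protein sequence is shown.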

Additional observations from a re-analysis of the deposited data

How the results depend on the processing

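No member was called in any comparison under any setting run. The median log2 fold change of the members for CRNN over GFP was 0.32. It was 0.29 with the planned GC and length correction, with or without the replicate block. Of the corrections added after seeing the data, that fitted on protein-coding genes gave 0.11, and 0.10 with the replicate block. That fitted on expressed protein-coding genes gave 0.056. For GFP over untreated the median was -0.24, and with the planned correction -0.28 without the block and -0.27 with it. Under the corrections added later it was -0.090, -0.083 and -0.041, in the same order. Leaving out 1 library gave 0.17 to 0.47 for CRNN over GFP, -0.077 to 0.18 for CRNN over untreated and -0.38 to -0.16 for GFP over untreated. The cause was not tested.

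Over all genes, 3 were called for CRNN over GFP. There were 34 with no filter, 13 with only the libraries of the 2 groups, 21 by DESeq2 and 1 with each GC and length correction. For CRNN over untreated, 1 was called, 152 with no filter and 7 by DESeq2. For GFP over untreated, edgeR called 0 (1137 had an unadjusted p under 0.05), 195 with no filter, DESeq2 29 and limma-voom 0. Leaving out 1 library gave 0 to 15 calls for CRNN over GFP (0 without either GFP library), 1 to 957 for CRNN over untreated and 0 to 966 for GFP over untreated. The highest counts of the last 2 came without untreated replicate 2. A group then holds a single library, assumed to vary like the others.

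Same-numbered libraries of CRNN and GFP had deviations with r = 0.26 over 11729 genes, those of CRNN and untreated -0.07 and those of GFP and untreated 0.19. The labels do not state that same-numbered libraries were paired, and these values cannot decide it. With the replicate block the calls were 4, 1 and 0, and the members' medians 0.33, 0.06 and -0.25. Among values of named members and complexes under alternatives, 36 of 577 changed sign for CRNN over GFP, 56 of 578 for CRNN over untreated and 35 of 578 for GFP over untreated, and 0 became a call. Depth limits the 7 members under 5 CPM most.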
